A study of Caenorhabditis elegans with 6 samples.

Results

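The furrow collagens of *Caenorhabditis elegans* are 6 cuticle collagens, encoded by *dpy-2*, *dpy-3*, *dpy-7*, *dpy-8*, *dpy-9* and *dpy-10*. They were taken by gene symbol, and all 6 were found among the 47157 gene rows of each library's file. RNA-seq libraries came from whole young adults, 3 from wild type (strain N2) and 3 from animals with the *blmp-1(s71)* mutation. The animals came from bleached embryos, hatched as synchronized larvae and grown on NGM agar plates. How many animals went into a library, and what the s71 lesion is, the labels do not say. The BLMP-1 protein, a BLIMP1-type transcription factor with zinc fingers, acts in epidermal cells and in developmental timing.

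The cuticle is the collagen exoskeleton that the epidermis builds anew at every molt. Circular furrows run around the body and divide the cuticle into rings called annuli. The furrow collagens assemble into a shared structure: when any member is lost by mutation, the others no longer form furrow bands and the animal becomes short and stout (dumpy). Cuticle collagen genes are transcribed in waves that recur with each molt, and *dpy-7* belongs to an early wave while the collagen *col-12* belongs to a late one. Loss of furrows is also known to switch on epidermal antimicrobial peptides and osmotic stress genes.

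The members are scattered over 3 chromosomes (positions are those of WBcel235, not necessarily the build behind the deposited values). *dpy-10* (chromosome II, 6710149 to 6712227, minus strand) and *dpy-2* (chromosome II, 6714292 to 6715971, plus strand) are transcribed away from each other, with 2064 bases and 3 other annotated genes between them. *dpy-3* (2144605 to 2145647), *dpy-8* (5148804 to 5150476) and *dpy-7* (7536467 to 7537792) lie on the minus strand of chromosome X. *dpy-9* (257403 to 259204, minus strand) lies on chromosome IV. The annotated genes have between 2 exons (*dpy-3* and *dpy-7*) and 5 exons (*dpy-2* and *dpy-10*), and their longest coding regions run from 302 residues in *dpy-3* to 452 in *dpy-8*. The annotation places *T14B4.19* across *dpy-10* on the same strand and *C31H2.14* across *dpy-8* on the opposite strand, so reads in the shared stretches may belong to either gene of each pair. *C31H2.14* held 13, 52 and 39 reads in wild-type libraries 1, 2 and 3, against 24, 67 and 206 for *dpy-8*, and 22, 68 and 38 in mutant libraries 1, 2 and 3, against 422, 536 and 166. *T14B4.19* held 0, 14 and 24 reads in the wild-type libraries, against 11, 80 and 137 for *dpy-10*, and 43, 65 and 18 in the mutant libraries, against 275, 349 and 108. The overlapping gene thus came closest to the member in wild-type libraries 1 and 2, for *dpy-8*.

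The libraries held 5255125 to 15218178 reads on genes. Both libraries numbered 1 were the shallowest, with 5255125 reads in wild type and 6586154 in the mutant. All members passed the filter on low values, but they were scarce: the 6 genes together held 74, 374 and 888 reads in wild-type libraries 1, 2 and 3, and 1858, 2243 and 646 in mutant libraries 1, 2 and 3. That is 0.00141% to 0.00584% of the reads in wild type and 0.00653% to 0.0282% in the mutant. *col-19*, an adult-specific cuticle collagen and a marker of the labelled adult stage, was present in every library. It stood at 2388 to 2962 scaled CPM in wild type and 1173 to 1748 in the mutant. Its presence does not show that the groups were at the same point of adulthood. The mutated gene's own transcript does not check the genotype, since the lesion is not described: *blmp-1* stood at 12.1 ± 2.20 scaled CPM in wild type and 14.5 ± 6.87 in the mutant (SD, n = 3).

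In the mutant the furrow collagen transcripts averaged about 4 times their wild-type level, but the spread among libraries was nearly as wide as the difference. Summed over the 6 genes, the scaled level (CPM, each read count relative to the library total, divided by a TMM factor that aligns the libraries) was 17.3, 28.4 and 66.1 in wild-type libraries 1, 2 and 3. It was 261, 135 and 60.5 in mutant libraries 1, 2 and 3. The group means were 37.3 ± 25.5 and 152 ± 101 (SD, n = 3), a ratio of 4.08. The groups overlapped, because wild-type library 3 lay above mutant library 3. Of the members, *dpy-2* passed the test across all genes and the other 5 did not.

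*dpy-2* was the member called higher. Its scaled CPM were 3.04, 5.10 and 9.30 in wild-type libraries 1, 2 and 3 and 41.6, 23.5 and 10.6 in mutant libraries 1, 2 and 3. All 3 mutant libraries lay above all 3 wild-type libraries, with mutant library 3 only just above wild-type library 3. The log2 fold change of (scaled CPM + 1), mutant minus wild type, was 1.86 (SE 0.52, 95% interval 0.64 to 3.08), with an adjusted p of 0.0445 in limma with Benjamini-Hochberg adjustment over 13756 genes. With a library left out, *dpy-2* was called in 1 of 6 limma fits, the fit without mutant library 3 (log2 fold change 2.35, adjusted p = 0.00561), and the adjusted p of the 6 fits ran from 0.00561 to 0.182.

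Nearby *dpy-10* stood at 2.57, 6.09 and 10.2 scaled CPM in wild-type libraries 1, 2 and 3. In mutant libraries 1, 2 and 3 it stood at 38.7, 21.0 and 10.1. The groups overlapped by a narrow margin, with wild-type library 3 above mutant library 3. The log2 fold change was 1.70 (SE 0.57, 95% interval 0.36 to 3.03, limma adjusted p = 0.0643).

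Among the members on chromosome X, *dpy-8* was the most abundant on the CPM scale, which does not correct for gene length. It measured 5.62, 5.10 and 15.3 scaled CPM in wild-type libraries 1, 2 and 3 and 59.3, 32.3 and 15.6 in mutant libraries 1, 2 and 3. The groups did not overlap, though mutant library 3 and wild-type library 3 were nearly level. Its log2 fold change of 1.89 (SE 0.56, 95% interval 0.55 to 3.23) missed the threshold narrowly, with a limma adjusted p of 0.0526. When the scaling factors came from the tested genes alone, a setting added after the data were seen, the limma adjusted p of *dpy-8* was 0.0473.

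*dpy-7*, whose promoter is widely used to drive expression in the epidermis, had the highest fold change of the 6. The scaled CPM were 2.81, 4.41 and 10.5 in wild-type libraries 1, 2 and 3 and 55.1, 22.0 and 9.18 in mutant libraries 1, 2 and 3. Here the spread was widest within the mutant, where library 1 was 6.0 times library 3, and mutant library 3 lay below wild-type library 3. The log2 fold change was 1.93 (SE 0.72, 95% interval 0.16 to 3.70, limma adjusted p = 0.0925).

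*dpy-3* was the scarcest member on the CPM scale and had the lowest fold change. It held 5 reads in wild-type library 1, a count whose exact 95% Poisson interval runs from 1.62 to 11.7 reads. Its scaled CPM were 1.17, 2.81 and 9.67 in wild-type libraries 1, 2 and 3 and 24.5, 13.3 and 6.09 in mutant libraries 1, 2 and 3. Wild-type library 3 was 8.27 times wild-type library 1, the widest ratio among the wild-type libraries for any member. Both the fold change and its test were the weakest of the 6, at 1.62 on the log2 scale (SE 0.72; adjusted p = 0.131 in limma) and a 95% interval from -0.12 to 3.37 that includes 0.

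*dpy-9*, on chromosome IV, stood at 2.11, 4.94 and 11.1 scaled CPM in wild-type libraries 1, 2 and 3 and at 42.0, 22.9 and 8.99 in mutant libraries 1, 2 and 3. Again mutant library 3 lay below wild-type library 3. The log2 fold change was 1.84 (SE 0.70, 95% interval 0.14 to 3.54, limma adjusted p = 0.0938).

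**Figure D1:**
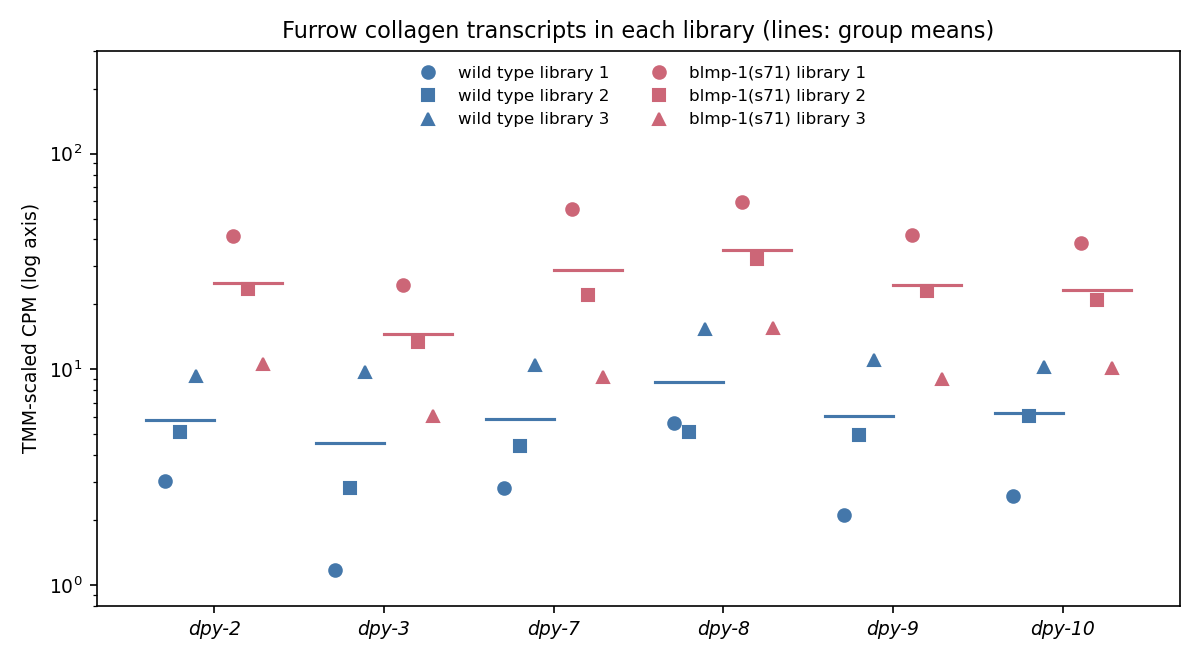
TMM-scaled CPM (log axis) of each furrow collagen in the 3 wild-type and 3 mutant libraries, with symbols for library numbers and lines for group means. For every gene mutant library 1 is highest, and mutant library 3 lies close to wild-type library 3, for example at 10.6 against 9.30 for *dpy-2*.

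Across the comparison, limma called 1 of the 6 members higher and 0 lower, where it called 8.84% of all tested genes higher and 13.4% lower. Groups without overlap, mutant higher, were found for 2 members (*dpy-2* and *dpy-8*), and for 22.6% of all tested genes. With 6 members, these counts are no more than single genes and say nothing about the family as a whole. The median log2 fold change of the 6 was 1.85, beside 0.07 over all 13756 genes, and 161 tested genes (1.17%) had a log2 fold change at or above that of *dpy-3*, the lowest member. On reads recovered from the CPM values, edgeR's quasi-likelihood test also called *dpy-2* alone of the 6 higher (8.48% of all genes were called higher), with a log2 fold change of 2.05 and an adjusted p of 0.0447. DESeq2 on the same reads called all 6 higher (11.8% of all genes), with adjusted p from 0.000974 for *dpy-2* to 0.0278 for *dpy-3*.

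The calls depended on single libraries, for the members as for genes in general. Without mutant library 3, limma called 5 of 6 members higher, all but *dpy-3*, and 13.9% of all genes, and the log2 fold changes were between 2.09 and 2.54. Without wild-type library 1, 2 or 3 it called 0 of the 6, beside 1.76%, 1.12% and 1.55% of all genes called higher, and without mutant library 1 or 2 it called 0 of the 6, beside 0.211% and 0.189%. Since few genes of any kind were called in those 5 fits, the 0 says nothing about the members. In the same limma fits 1 to 6 members had an unadjusted p under 0.05. Over all tested genes that count ran from 3389 of 13238 (without mutant library 2) to 5907 of 13657 (without wild-type library 1). Without mutant library 1 the log2 fold changes were between 1.13 and 1.37, and without wild-type library 3 between 2.09 and 2.38. Without both libraries numbered 1, the shallowest ones, the log2 fold changes were between 0.73 for *dpy-3* and 1.31 for *dpy-8*, and 0 of 6 were called, beside 0.824% of all genes called higher. The direction held throughout: all 174 member values over the 29 alternative settings were positive, from 0.73 to 2.97.

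**Figure D2:**
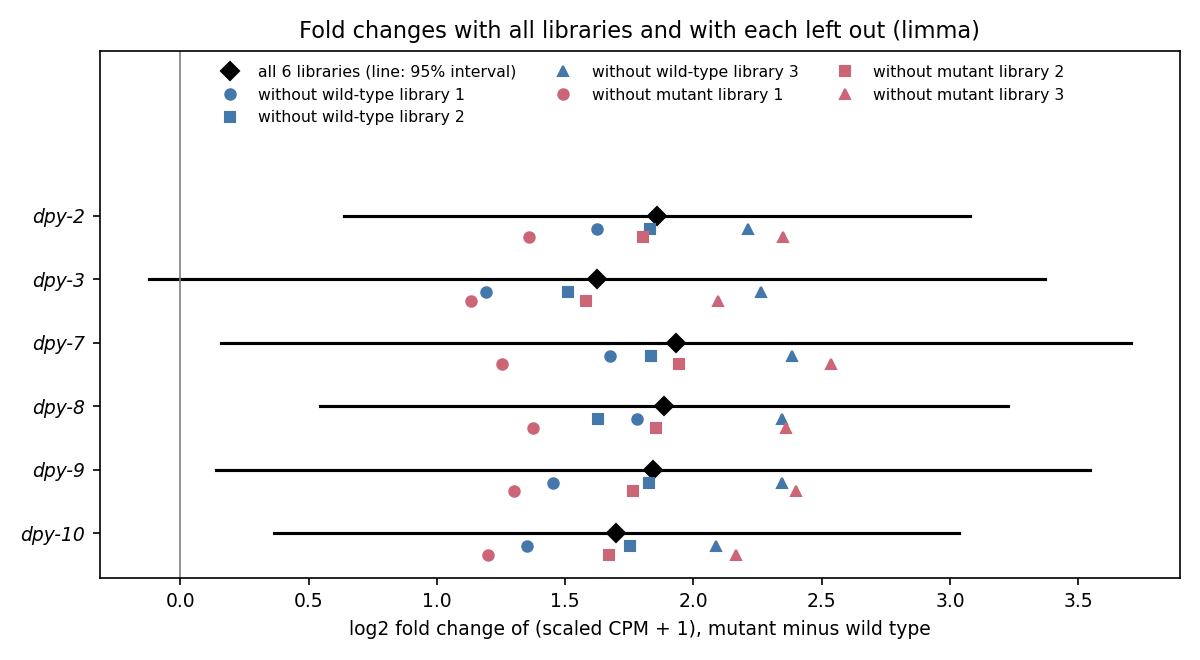
Log2 fold change of (scaled CPM + 1), mutant minus wild type, for each furrow collagen with all libraries (diamond, with the 95% interval of limma as a line) and with each library left out in turn (coloured symbols). The estimates stay above 0 with any library left out, while the interval of *dpy-3* (-0.12 to 3.37) includes 0.

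The 6 genes moved together from library to library. Over the 6 libraries, the Pearson correlation of log2 scaled CPM between members ran from 0.957 (*dpy-3* with *dpy-8*) to 0.997 (*dpy-9* with *dpy-10*), with a median of 0.983 over 15 pairs. After each group's mean was taken off, so that the difference between strains no longer entered, the correlations of the 15 pairs still ran from 0.894 to 0.994. These are descriptions over libraries that the genes share, with no test. The same order of libraries within each group, wild-type library 3 above 2 above 1 and mutant library 1 above 2 above 3, was found for 5 of the 6 members and for 4.52% of all tested genes. The exception was *dpy-8*, for which wild-type library 2 was slightly below wild-type library 1.

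The spread within each group was far larger than counting error. In wild type the coefficient of variation of scaled CPM ran from 54.9% for *dpy-2* to 99.1% for *dpy-3*, while the reads behind the values allow 11.2% to 13.9% from counting alone. In the mutant it ran from 61.8% for *dpy-2* to 82.3% for *dpy-7*, against 5.54% to 8.66% from counting. In whole animals, fewer cells expressing a gene and less RNA per cell cannot be told apart.

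Corrected for transcript length, the members were present at similar levels. Mean TPM (the deposited length-corrected value) in wild type was 6.61 ± 3.99 for *dpy-8*, 6.47 ± 4.58 for *dpy-9*, 5.66 ± 3.56 for *dpy-7*, 5.65 ± 3.14 for *dpy-10*, 5.37 ± 5.08 for *dpy-3* and 5.06 ± 2.48 for *dpy-2* (SD, n = 3). In the mutant the order was *dpy-7* (34.4 ± 28.4), *dpy-8* (33.7 ± 21.1), *dpy-9* (33.0 ± 22.4), *dpy-2* (27.2 ± 17.03), *dpy-10* (26.0 ± 16.3) and *dpy-3* (21.7 ± 13.9). Neighbours in both orders differed by less than their spread over libraries, as did the top and bottom genes. The genes largely share that spread, since they moved together, so it does not measure differences between genes. *dpy-3* lay below *dpy-8* in every library, from 1.53 against 4.66 TPM in wild-type library 1 to 11.13 against 11.20 in wild-type library 3. *dpy-7* lay below *dpy-3* in wild-type library 3 (9.69 against 11.13). No difference between members was tested.

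Each gene's mean part of the furrow collagen total was close in both strains. On the TPM scale, *dpy-8* made up 20.2% of the sum on average in wild type and 19.7% in the mutant, *dpy-9* 17.9% and 18.5%, *dpy-7* 16.4% and 18.1%, *dpy-10* 16.7% and 15.2%, *dpy-2* 15.5% and 15.8%, and *dpy-3* 13.4% and 12.6%. Single libraries departed from these means. In wild-type library 1, *dpy-8* held 24 of the 74 furrow collagen reads (32.4%, exact Clopper-Pearson 95% interval 22.0% to 44.3%), and in wild-type library 2 it held 67 of 374 (17.9%, interval 14.2% to 22.2%). *dpy-3* held 5 of 74 in wild-type library 1 (6.76%, interval 2.23% to 15.1%) and 130 of 888 in wild-type library 3 (14.6%, interval 12.4% to 17.1%). The latter lay above the 9.36% and 9.85% of mutant libraries 1 and 2, whose intervals ended at 10.8% and 11.2%. The intervals of wild-type library 2 (9.89%, 7.06% to 13.4%) and mutant library 3 (10.1%, 7.85% to 12.6%) reached into that of wild-type library 3. Intervals from reads cover counting error only.

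**Figure D3:**
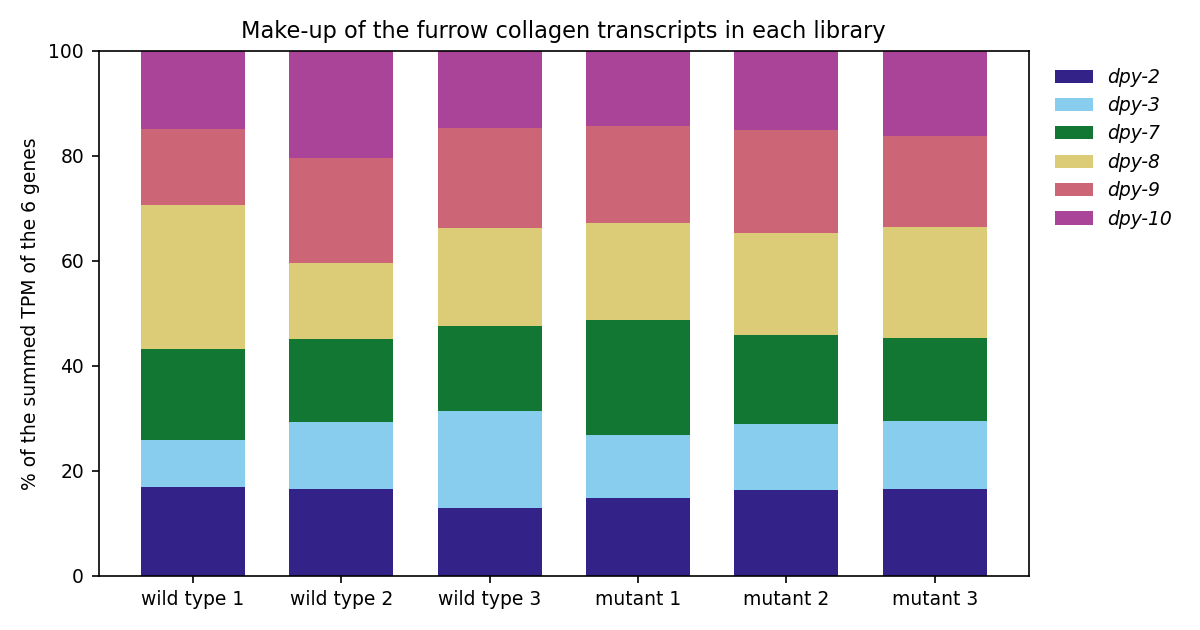
Share of each furrow collagen in the summed TPM of the 6 genes, as a percentage, for each of the 6 libraries. The share of *dpy-8* runs from 14.5% to 27.4% and that of *dpy-3* from 8.98% to 18.5%, while the summed TPM ran from 17.02 in wild-type library 1 to 303 in mutant library 1.

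Other genes followed the same pattern over the 6 libraries. Of 11168 other genes (mean log2 value 2 or more), 208 had a Pearson correlation of at least 0.95 with the mean profile of the furrow collagens. The closest was *wrt-10*, of the Hedgehog-related warthog family, with a correlation of 0.9997 and scaled CPM of 2.81, 4.72 and 10.8 in wild-type libraries 1, 2 and 3 and 41.9, 20.9 and 9.46 in mutant libraries 1, 2 and 3. Those values nearly coincide with the values of *dpy-9* and *dpy-2*. The next in order were *M03F4.6*, *Y75B7AR.1*, *R02F11.1*, *phg-1*, the cuticle collagen *col-90*, *F47F2.1* and *T19C4.1*, with correlations from 0.997 to 0.995. *col-90* stood at 5.62, 8.98 and 21.7 scaled CPM in wild-type libraries 1, 2 and 3 and 120, 61.9 and 25.9 in mutant libraries 1, 2 and 3. Its log2 fold change of 2.36 (SE 0.69) did not pass (limma adjusted p = 0.0561). Of these 8 genes, limma called *T19C4.1* alone (adjusted p = 0.0434), at 1.30 on the log2 scale (SE 0.40).

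Other collagens that shape the body mostly had the same order of libraries. Of 15 listed annular, strut and other body-shape collagens, 14 were found by symbol and tested. None passed in limma (0 of 14), while edgeR called 0 and DESeq2 called 3 higher and 2 lower. In limma 3 of the 14 had an unadjusted p under 0.05, beside 6166 of all 13756 tested genes. Of the 14, 12 had a positive log2 fold change, with a median of 1.2201. Without mutant library 3, limma and edgeR each called 5 of 14, all higher, and DESeq2 called 11 higher and 1 lower. The order of libraries seen in most furrow collagens was found in 12 of the 14. *rol-6*, a collagen of body form, had the highest log2 fold change, 2.37 (SE 0.89, limma adjusted p = 0.103), with 7.26, 22.0 and 36.8 scaled CPM in wild-type libraries 1, 2 and 3 and 211, 130 and 34.5 in mutant libraries 1, 2 and 3. Over the 6 libraries pooled, *dpy-4* had the highest mean of the list, at 132 ± 54.3 scaled CPM in wild type and 312 ± 234 in the mutant (SD, n = 3; limma adjusted p = 0.318). *dpy-14* and *dpy-17* had negative log2 fold changes, -0.89 and -0.91. The late-wave collagen *col-12* stood at 48.0, 92.7 and 118 scaled CPM in wild-type libraries 1, 2 and 3 and 95.5, 114 and 38.1 in mutant libraries 1, 2 and 3, a log2 fold change of -0.11 (SE 0.49; adjusted p = 0.872 in limma), beside 1.93 for the early-wave *dpy-7*. The difference between those 2 fold changes was not tested.

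Of 12 enzymes and helpers that fold, trim and cross-link collagens, 3 rose and 1 fell, with a median log2 fold change of 0.44. The procollagen protease gene *dpy-31* rose by 1.07 (SE 0.24, limma adjusted p = 0.0337), the prolyl 4-hydroxylase gene *dpy-18* by 0.88 (SE 0.27) and the dual oxidase gene *bli-3* by 0.72 (SE 0.22). The peroxidase gene *skpo-1* fell by 0.83 (SE 0.26) on the log2 scale. The proprotein convertase gene *bli-4*, whose enzyme cleaves cuticle collagens, stood at a log2 fold change of -0.01 (SE 0.21; adjusted p = 0.970 in limma). None of the 12 had the furrow collagens' order of libraries, and each of the 4 called genes was called in 1 of 6 limma fits with a library left out, the fit without mutant library 3. With library size alone 6 rose and 0 fell, and with upper-quartile scaling 4 rose and 0 fell. With TPM 1 rose and 0 fell, and without the filter on low values 0 of the 12 were called. Without that filter 115 of 22878 genes of any kind were called, so this 0 says nothing about the list.

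Among 12 regulators of the epidermis and the molt cycle, *nhr-85*, a nuclear receptor of the molting timer, rose by 1.099 (SE 0.27), *grh-1*, a Grainyhead transcription factor, by 1.09 (SE 0.32) and *dre-1*, whose F-box product targets BLMP-1, by 0.75 (SE 0.25). *lin-26*, an epidermal fate factor, fell by 0.92 (SE 0.26) on the log2 scale. The nuclear receptor *nhr-23*, a driver of molting genes, stood at a log2 fold change of -0.12 (SE 0.21; adjusted p = 0.661 in limma). *lin-42*, the period homologue that cycles with the molts, stood at 18.3, 14.5 and 21.8 scaled CPM in wild-type libraries 1, 2 and 3 and at 127, 53.4 and 14.6 in mutant libraries 1, 2 and 3 (limma adjusted p = 0.230). The 4 called regulators were each called with 1 library left out, mutant library 3, and in none of the other 5 such limma fits. Those 5 fits called 34 to 275 genes of any kind. With library size alone 4 of the 12 rose and 0 fell, and with TPM 1 rose and 1 fell. Without the filter on low values 0 of the 12 were called, beside 115 of all 22878 genes.

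Genes of molting and of the apical extracellular matrix build or remodel the coat around each new cuticle. Of 15 listed, 2 rose, 0 fell and 14 had a positive log2 fold change, with a median of 1.63. The Patched-related gene *ptr-4* rose by 1.91 (SE 0.54, limma adjusted p = 0.0466), from 3.04, 6.47 and 11.1 scaled CPM in wild-type libraries 1, 2 and 3 to 42.6, 32.3 and 12.4 in mutant libraries 1, 2 and 3. *let-653*, a mucin-like matrix gene, rose by 1.25 (SE 0.27, limma adjusted p = 0.0337). Mutant library 1 was the highest library for 14 of the 15, as for all 6 furrow collagens, where this holds for 16.9% of all tested genes. limma called 8 of 15 with library size alone or upper-quartile scaling, and DESeq2 called 12. Without the filter on low values limma called 0 of 15, beside 115 of all 22878 genes. With a library left out, limma called 12 without mutant library 3, and DESeq2 called 2 to 13 over its 6 such fits. limma called 0 without wild-type library 2 or 3 or mutant library 1 or 2, where it called 34 to 234 genes of any kind.

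**Figure D4:**
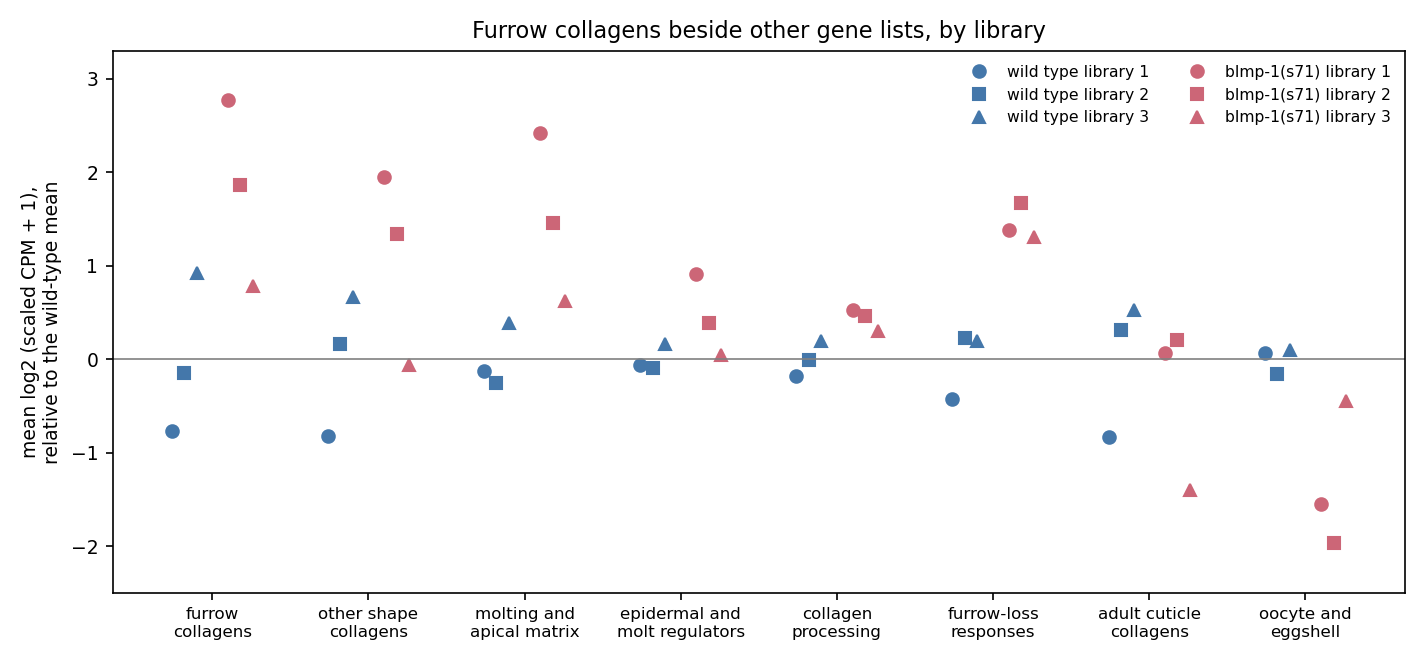
Mean log2 (scaled CPM + 1) of the tested genes of 8 lists in each library, relative to the wild-type mean of each gene. The furrow collagens lie at -0.77, -0.15 and 0.92 in wild-type libraries 1, 2 and 3 and at 2.78, 1.87 and 0.78 in mutant libraries 1, 2 and 3, while the furrow-loss response genes lie at 1.38, 1.67 and 1.31 in the mutant libraries.

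Genes that are known to respond when furrows are missing are mostly antimicrobial peptide and osmotic response genes. Of 10 listed, 6 rose and 0 fell, with a median log2 fold change of 1.27, and the 6 that rose were the 6 whose groups did not overlap. The antimicrobial peptide gene *cnc-2* rose by 2.66 (SE 0.28, limma adjusted p = 0.00128) from 1.64, 1.14 and 0.521 scaled CPM in wild-type libraries 1, 2 and 3 to 11.7, 10.8 and 13.5 in mutant libraries 1, 2 and 3, and passed in all 6 limma fits with a library left out. *nlp-34*, *nlp-31* and *nlp-29*, genes of the same class, rose by 3.14 (SE 0.42), 1.495 (SE 0.28) and 2.06 (SE 0.36). They were called in 5, 4 and 4 of 6 limma fits with a library left out. Also of that class, *nlp-27* (0.32, SE 0.25, limma adjusted p = 0.325) and *nlp-28* (0.45, SE 0.37, limma adjusted p = 0.345) were not called. Relative to the wild-type mean, these 10 genes averaged 1.38, 1.67 and 1.31 on the log2 scale in mutant libraries 1, 2 and 3. By this mean, mutant library 3, in which the furrow collagens were at the level of wild-type library 3, was level with mutant library 1. Single genes differed. Scaled CPM was lower in mutant library 3 than in mutant library 1 for *nlp-34* (11.2 against 31.5), *nlp-30* (11.2 against 24.3) and *nlp-31* (38.5 against 59.5). It was slightly lower for *nlp-29* and *nlp-27*. It was higher for *nlp-28* (35.88 against 18.98), *gpdh-1* (20.05 against 10.97), *cnc-2*, *hmit-1.1* and *gst-4*. The osmotic response gene *hmit-1.1* was also called (1.05, SE 0.31, in 1 of 6 limma fits with a library left out). *gpdh-1*, the glycerol synthesis gene of that response, stood at a log2 fold change of 0.83 (SE 0.32; adjusted p = 0.0699 in limma), and the glutathione transferase gene *gst-4* one of 0.08 (SE 0.21, limma adjusted p = 0.763). With a library left out, limma called between 1 (without mutant library 2) and 6 of the 10 higher, and DESeq2 between 5 and 7.

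Of 14 genes that carry or restrain those responses, 13 were found by symbol and tested, and 5 rose and 0 fell, with a median log2 fold change of 0.57. They were *dcar-1*, the receptor upstream of *nlp-29* (1.08, SE 0.26), *osm-7* (1.05, SE 0.27) and *osm-11* (0.70, SE 0.22), negative regulators of the osmotic response, the transporter gene *snf-12* (0.97, SE 0.31) and its partner *sta-2*, a STAT factor (0.86, SE 0.27). The p38 kinase gene *pmk-1* stood at a log2 fold change of 0.03 (SE 0.23; adjusted p = 0.936 in limma). With a library left out, *osm-7* was called in 2 of 6 limma fits, *dcar-1*, *snf-12* and *sta-2* in the fit without mutant library 3 alone, and *osm-11* in 0. The fit without mutant library 3 called 4746 genes of any kind, and the others called 34 to 275. Without the filter on low values 0 of the 13 were called, beside 115 of all 22878 genes.

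Markers of stage and of other tissues also differed between these libraries, and their part in the furrow collagen result was not tested. The 13 oocyte and eggshell markers summed to between 5729 and 7726 CPM as deposited in wild type and to 2827, 2416 and 5722 in mutant libraries 1, 2 and 3, and limma called 9 of the 13 lower. Without mutant library 3 limma called 12 lower, and without any other library 0, where DESeq2 called 0 to 9. Over all genes limma called 34, 26 and 22 lower without wild-type library 1, 2 or 3, and 11 and 9 without mutant library 1 or 2. With so few lower calls of any kind, the 0 says nothing about the oocyte markers. Mutant library 3 was the mutant library nearest to wild type in oocyte markers and in furrow collagens alike. In the adult cuticle collagens it was the farthest by mean log2 level relative to the wild-type mean. That level was 0.07, 0.21 and -1.41 in mutant libraries 1, 2 and 3. The 6 yolk protein genes summed to 134785 CPM in wild-type library 1 and to 36900 to 59454 in the other 5 libraries. No yolk gene passed in limma (0 of 6) or in edgeR, while DESeq2 called 3 lower. In limma 3 of the 6 had an unadjusted p under 0.05, beside 6166 of all 13756 tested genes. The 6 adult cuticle collagens summed to 2068, 3316 and 2984 CPM in wild-type libraries 1, 2 and 3. In mutant libraries 1, 2 and 3 they summed to 1955, 2795 and 1892 CPM. *col-19* fell by 0.87 (SE 0.22) on the log2 scale. This limma call was lost with library size alone, where 140 genes of any kind were called lower. It was also lost without any library other than mutant library 3, where 9 to 34 were. *col-7* (-1.63, SE 0.59) and *col-62* (-1.33, SE 0.48) were lower without a limma call, while 3 of the 6 had a positive log2 fold change. The 8 sperm markers summed to 248 to 361 CPM in wild type and 422 to 577 in the mutant, with 2 of 8 called higher by limma. With a library left out, limma and DESeq2 each called 0 to 3 of the 8. The 9 early embryo markers summed to 35.5 to 56.4 CPM over the 6 libraries, with *med-1* at 0 in each of them, and 0 of the 3 tested were called. The 5 epidermis markers summed to 96.9, 213 and 287 CPM in wild-type libraries 1, 2 and 3 and 1033, 716 and 230 in mutant libraries 1, 2 and 3. Both limma and edgeR called 0 of the 5, and DESeq2 called 2 higher. In limma 2 of the 5 had an unadjusted p under 0.05, again beside 6166 of 13756 genes. Of the 5, 4 are themselves cuticle collagens, 3 of them also on the body-shape list (*rol-6*, *sqt-3* and *bli-1*), and these 3 were highest in mutant library 1. *elt-3*, an epidermal GATA factor and the one marker that is no collagen, stood at 18.96, 22.67 and 25.15 scaled CPM in wild-type libraries 1, 2 and 3 and 27.98, 34.03 and 28.76 in mutant libraries 1, 2 and 3.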

How the data were processed

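RNA of 3 wild-type and 3 *blmp-1(s71)* young adult samples was extracted with TRIzol and made into TruSeq RNA libraries, per the labels' protocols. The groups and replicate numbers were read from the sample titles. The design text speaks of biological replicates, and no batch is named. For each library the authors deposited a CPM and a TPM value per gene, per the file headers, with the same column sum in every library. The tools, listed without a role per the submitters' processing notes, were HISAT2 2.1.0, Trimmomatic 0.36, DESeq2 1.22.0 and featureCounts 1.6.3. No source used here gives the build, annotation, strand use or handling of multi-mapping reads, so reads of overlapping or similar genes, collagens among them, may be misassigned. The series-wide table was left out.

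From the deposited CPM, whole reads were recovered for 100% of the values above 0 in every library (tolerance 0.01 reads). CPM were divided by TMM factors (0.813 to 1.21, from all rows), and the 13756 genes that reached a CPM of 1 in 3 or more libraries were tested with limma 3.58.1 (R 4.3.3) on log2(CPM + 1), which understates fold changes of low genes. The model had the group as its only term, a mean-variance trend and robust moderation, with Benjamini-Hochberg adjustment at 0.05. As alternatives the recovered reads were tested with DESeq2 1.42.0 and with the quasi-likelihood test of edgeR 4.0.16. The limma fit was tested on simulated data. Other alternatives were other scalings, pseudocounts of 0.5 and 2, no filter, TPM, a replicate block, and libraries left out. Added after the data were seen were TMM factors from the tested genes alone and edgeR and DESeq2 with each library left out. The written design did not say which genes the TMM factors come from: both versions were seen, and all rows were taken because an earlier analysis of these data did so. The choice moves *dpy-8* across the threshold. Promoter and protein sequences were not analysed here.

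The members and gene lists were chosen with earlier results of these data known. Named beside the members were up to 4 called genes per list by adjusted p, or else the gene with the highest mean, *blmp-1*, and the 8 genes nearest in pattern. *hmit-1.1*, *gpdh-1*, *gst-4*, *nlp-27*, *nlp-28*, *nlp-30*, *pmk-1*, *bli-4*, *nhr-23*, *lin-42*, *rol-6*, *dpy-14*, *dpy-17*, *col-12*, *elt-3*, *sqt-3*, *bli-1*, the overlapping genes and the stage markers were picked after their values were seen. *ram-4* and *spia-1*, also on the lists, were not matched by symbol and have no value here.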

Additional observations from a re-analysis of the deposited data

How the results depend on the processing

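All 6 log2 fold changes kept their sign under the 29 alternatives, and the calls did not. *dpy-2* was no longer called without the low-value filter (1.86), with TPM (1.85), with the replicate block (1.86) or without both libraries numbered 1 (1.17). *dpy-8* was newly called with DESeq2 (2.05), library size alone (2.19), upper-quartile scaling (2.01) and TMM factors from the tested genes alone (1.91). *dpy-10* was newly called with DESeq2 (1.89), library size alone (1.99) and upper-quartile scaling (1.83), and *dpy-3*, *dpy-7* and *dpy-9* with DESeq2 (1.68, 2.30 and 2.03). With a library left out, over limma, edgeR and DESeq2, the log2 fold changes ran from 1.36 to 2.59 for *dpy-2*, 0.96 to 2.80 for *dpy-3*, 1.26 to 2.97 for *dpy-7*, 1.37 to 2.74 for *dpy-8*, 1.28 to 2.77 for *dpy-9* and 1.20 to 2.39 for *dpy-10*. The number of furrow collagens called, 1 of 6, was 6 with DESeq2, 3 with library size alone or upper-quartile scaling, and 2 with TMM factors from the tested genes alone. Of 13756 genes these settings called 1629, 2282, 2032 and 1553 higher, in that order. The number was 0 without the filter, with TPM, with the replicate block or without both libraries numbered 1. There 96 of 22878, 740 of 14526, 2372 of 13756 and 108 of 13109 genes were called higher. With a library left out it was 0 to 6, beside 25 to 2346 genes called higher.

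Over all genes, 3061 were called. The number was 115 without the filter, 1914 with TPM, 5877 with the replicate block, 124 without both libraries numbered 1, and 34 to 5663 with a library left out. The share of higher calls was moved by scaling: 1216 were higher and 1845 lower here, 2282 and 140 with library size alone, and 2032 and 1312 with upper-quartile scaling. In these 3 settings all genes had a median of 0.07, 0.35 and 0.18 on the log2 scale. The causes of these shifts were not tested. Same-numbered libraries correlated at 0.35, 0.44 and -0.09 in their deviations from the group means. Differently numbered ones correlated from -0.45 to 0.19. The main model did not take the numbers as pairs, and whether same-numbered libraries were prepared together was not tested. With the replicate block the adjusted p of the furrow collagens ran from 0.190 to 0.348. In wild-type library 1, 3 reads correspond to 0.571 CPM, against 0.951 CPM for *dpy-3*, the scarcest member.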
